A study of Arabidopsis thaliana with 8 samples.

Results

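The genes described here make, inactivate and sense brassinosteroids in Arabidopsis thaliana. They are 10 genes chosen by locus: the synthesis enzymes DWF4 (AT3G50660), CPD (AT5G05690), BR6OX1 (AT5G38970), BR6OX2 (AT3G30180), ROT3 (AT4G36380) and DET2 (AT2G38050), the inactivating enzymes BAS1 (AT2G26710) and SOB7 (AT1G17060), the receptor BRI1 (AT4G39400) and the transcription factor BZR1 (AT1G75080). Probes were assigned to a locus through the sequence accession that the array files give. By that match 9 of the 10 genes had a probe, 17 probes in all, and all 9 were among the 22668 genes tested. SOB7 had no matched probe and was not analysed here.

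Transcript levels were measured with one-colour microarrays in whole 12-day-old Col-0 seedlings of 4 genotypes: as1-1, tfl2-1, the double mutant as1-1 tfl2-1, and wild type (WT). The product of AS1 is a MYB protein that keeps KNOX homeobox genes of class I off in leaves, and that of TFL2 (LHP1) is a chromodomain protein that acts with the Polycomb repressors. Each genotype had 2 arrays, 8 in all, and no group was treated: all seedlings grew on MS plates at 22 °C with 16 h of light (about 100 µE m-2 s-1) and 8 h of dark. The labels give neither the lesions of the alleles nor whether the arrays of a genotype came from separate cultures, so the p-values measure only the spread between these arrays, which may be technical.

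Brassinosteroids are steroid hormones that promote cell expansion, and mutants that cannot make or sense them are dwarfs. They are built from plant sterols by a chain of reductases and cytochrome P450 enzymes. BRI1, a receptor kinase at the cell surface, binds the hormone and, through a cascade that inactivates the kinase BIN2, lets BZR1 and its relative BES1 act in the nucleus. BZR1 in turn represses several synthesis genes, so the pathway is under feedback control. At the boundary between meristem and leaf the hormone is kept low, and there the LOB transcription factor is known to activate BAS1.

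On each array 29243 to 31610 of 43603 probes (67.1% to 72.5%) were well above background by the scanner program's own flag. Levels are given as scaled signal, on which the 75th percentile of each array is 1000, and differences as log2 with the standard error (SE) of a linear model of all 8 arrays. A gene is said to have risen or fallen when limma's adjusted p, over all genes tested, was under 0.05. The as1-1 and WT arrays shared slide 1 and the tfl2-1 and double-mutant arrays shared slide 2. The contrasts of as1-1 with WT and of the double mutant with tfl2-1 therefore lay within a slide, while in tfl2-1 or double mutant against WT and in double mutant against as1-1 the slide and the TFL2 genotype cannot be told apart. The 8 spike-in RNAs used differed by -0.32 to -0.06 on the log2 scale in those last 3 contrasts and by -0.22 to -0.06 in the contrasts within a slide. AS1 mRNA was 1.41-fold lower in as1-1 than in WT (adjusted p = 0.00394) and was not lower in the double mutant (difference 0.02). The labels do not say whether its probe lies in the altered part of the gene, so its level does not check the as1-1 label. KNAT1, a class I KNOX gene, was 3.85-fold higher in as1-1 and 9.98-fold higher in the double mutant. TFL2 mRNA was 2.12-fold lower in tfl2-1 and 1.66-fold lower in the double mutant, each against WT.

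Of the 9 measured genes, 5 differed from WT in tfl2-1 (CPD higher; DWF4, BR6OX2, ROT3 and BRI1 lower) and 4 in the double mutant (the same 4 lower). None passed the threshold in as1-1. These counts have to be read against the whole array. In tfl2-1 against WT 54.7% of all genes were called (26.2% higher and 28.4% lower), in the double mutant against WT 63.7% (30.8% higher and 32.9% lower) and in as1-1 against WT 19.2% (7.09% higher and 12.1% lower), so the shares of the brassinosteroid genes lie near or below the general share. Their median log2 difference was -0.36 in tfl2-1, -0.32 in the double mutant and 0.12 in as1-1, where the medians of all genes were -0.01, -0.01 and -0.04. In as1-1 against WT, 7844 of all genes had an unadjusted p under 0.05.

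**Figure D1:**
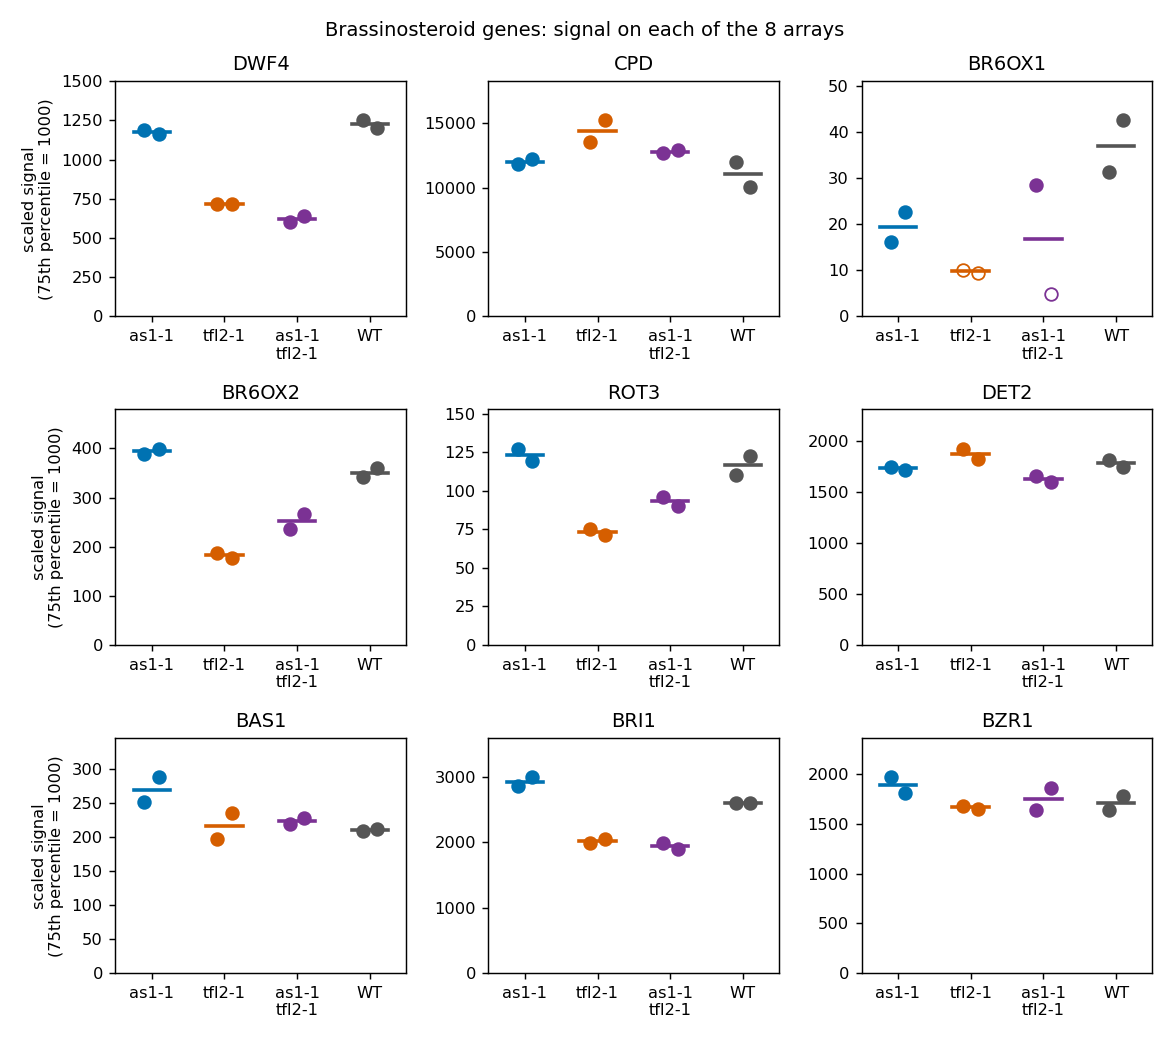
Scaled signal (vertical axis, 75th percentile of each array at 1000) of the 9 measured genes on each of the 8 arrays, by genotype. Points are arrays, lines are means of 2 arrays, and open points were not well above background; DWF4, BR6OX2, ROT3 and BRI1 lie lower in tfl2-1 and in the double mutant than in WT on every array, and BR6OX1 lies at 42.6 or less throughout.

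DWF4, the steroid hydroxylase held to be the rate-limiting enzyme of the pathway, was lower in both genotypes that carry tfl2-1. Its scaled signal was 1191 and 1164 in as1-1, 717 and 719.7 in tfl2-1, 604.6 and 641 in double mutants, and 1251 and 1202 in WT. No 2 genotypes overlapped, and the order ran from WT through as1-1 and tfl2-1 to the double mutant, but as1-1 and WT lay close together. Against WT, DWF4 fell by 0.77 (SE 0.050, n = 2 per genotype, adjusted p = 7.6e-05; 1.71-fold lower) in tfl2-1 and by 0.98 (adjusted p = 1.96e-05; 1.97-fold lower) in the double mutant. In as1-1 the difference was -0.06 (95% confidence interval -0.18 to 0.06, adjusted p = 0.455).

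BR6OX2, the enzyme of the last steps towards brassinolide, showed a graded pattern. Its signal was 388.1 and 399.3 in as1-1, 187.8 and 177.2 in tfl2-1, 236.9 and 267.4 in double mutants, and 342 and 359.3 in WT. The 4 genotypes did not overlap, with as1-1 the highest, then WT, then the double mutant, and tfl2-1 the lowest. It fell by 0.94 (SE 0.072, adjusted p = 0.000144; 1.92-fold lower) in tfl2-1 and by 0.48 (adjusted p = 0.00166; 1.39-fold lower) in the double mutant, each against WT. The difference of as1-1 from WT, 0.17, did not pass the threshold (adjusted p = 0.162).

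ROT3, a P450 enzyme whose loss shortens leaves, followed the order of BR6OX2 at a lower signal. It had 127.3 and 119.3 in as1-1, 75.2 and 71.6 in tfl2-1, 96.2 and 90.5 in double mutants, and 110.4 and 122.7 in WT. The as1-1 and WT arrays overlapped, and the double mutant lay between them and tfl2-1. ROT3 fell by 0.67 (SE 0.073, adjusted p = 0.0006; 1.59-fold lower) in tfl2-1 and by 0.32 (adjusted p = 0.00944; 1.25-fold lower) in the double mutant, each against WT. The call in the double mutant was lost without the second double-mutant array (adjusted p = 0.0522).

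CPD, a P450 enzyme that acts beside DWF4 and, like it, is repressed by BZR1, did not move with DWF4. Its signal was 11806 and 12187 in as1-1, 13537 and 15231 in tfl2-1, 12715 and 12889 in double mutants, and 12019 and 10078 in WT. Both tfl2-1 arrays were above all others, while as1-1 overlapped WT. CPD rose by 0.38 (SE 0.097, adjusted p = 0.0174; 1.30-fold higher) in tfl2-1, and its difference was 0.22 (adjusted p = 0.0945) in the double mutant. That second difference passed in 6 of 17 alternative settings, among them quantile normalization (0.41, adjusted p = 0.0147), the deposited value table (0.41, adjusted p = 0.0144) and the omission of the first WT array (0.35, adjusted p = 0.0206), and it was 0.09 without the second WT array. The call in tfl2-1 was lost without the second WT array (adjusted p = 0.0592) and without the second tfl2-1 array (0.0887), and with no filter on dim probes (0.0521).

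DET2, the steroid reductase that acts early in the chain, varied little between genotypes. It had 1749 and 1716 in as1-1, 1926 and 1822 in tfl2-1, 1661 and 1598 in double mutants, and 1817 and 1749.9 in WT. The groups did not overlap but were close together, and none of the 3 mutants passed the threshold against WT. The 95% confidence interval of the difference from WT was -0.17 to 0.08 in as1-1, -0.05 to 0.20 in tfl2-1 and -0.26 to -0.00 in the double mutant (adjusted p = 0.612, 0.285 and 0.0663 in that order).

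BR6OX1, the close relative of BR6OX2, was near background. Its signal was 16.1 and 22.6 in as1-1, 10.2 and 9.37 in tfl2-1, 28.6 and 4.93 in double mutants, and 31.3 and 42.6 in WT. Both tfl2-1 arrays and the dimmer double-mutant array were not well above background. The 2 WT arrays were the highest of the 8. In as1-1, where both arrays were well above background and below both WT arrays, BR6OX1 differed from WT by -0.94 (limma's adjusted p = 0.427). A gene not well above background on both arrays of a group has only a bound there, set by the dimmest signals that were well above background on those arrays or by its own signal where that was higher. On that basis BR6OX1 was at least 2.53-fold lower in tfl2-1 than in WT on the scaled signal, and limma's adjusted p was 0.0753. After normexp background correction the difference was -0.66. That correction adds an offset of 50 to every signal, which narrows the log2 differences of genes this dim, so it cannot check the bound. In the main fit the SE of BR6OX1 was 0.754, where those of the other 8 genes were 0.049 to 0.101. That SE is drawn from all 8 arrays, among them the double-mutant arrays at 28.6 and 4.93. The as1-1 test therefore cannot show that as1-1 and WT were alike. Its test was unstable: in as1-1 and in tfl2-1 it passed with either double-mutant array left out, and the as1-1 difference stayed at -0.94. In tfl2-1 it also passed with normexp background correction (adjusted p = 0.0094) and on the spike-in scale. In the double mutant against WT (adjusted p = 0.105) it passed with normexp (0.0146), on the spike-in scale and without the first double-mutant array, which leaves only the array that was not well above background.

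BAS1, the P450 enzyme that hydroxylates and so inactivates brassinosteroids, was highest in as1-1. Its signal was 251.2 and 287.9 in as1-1, 197.6 and 235.4 in tfl2-1, 219.6 and 227.7 in double mutants, and 208.9 and 211.4 in WT. The as1-1 arrays lay above all others, and the remaining genotypes were close together or overlapped. The difference of as1-1 from WT was 0.36 (SE 0.101, 1.28-fold, adjusted p = 0.0592) and did not pass the threshold. It passed in 4 of the 18 alternative settings, with adjusted p from 0.0376 to 0.0409, 2 of which left out a tfl2-1 array. In tfl2-1 and in the double mutant the differences were 0.04 (adjusted p = 0.777) and 0.09 (0.470).

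BRI1, the receptor, was lower in both genotypes with tfl2-1. It had 2856 and 2997 in as1-1, 1994 and 2051 in tfl2-1, 1987 and 1904 in double mutants, and 2601 and 2598 in WT. The as1-1 arrays were the highest and the double mutant the lowest, with no overlap. BRI1 fell by 0.36 (SE 0.049, adjusted p = 0.00146; 1.29-fold lower) in tfl2-1 and by 0.42 (adjusted p = 0.000559; 1.34-fold lower) in the double mutant, each against WT. In as1-1 its difference was 0.17 (adjusted p = 0.0615).

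BZR1, the transcription factor, had 1965 and 1807 in as1-1, 1680.0 and 1648 in tfl2-1, 1635 and 1853 in double mutants, and 1637 and 1773 in WT. Each mutant overlapped another genotype, and no contrast passed the threshold. The 95% confidence interval of the difference from WT was -0.05 to 0.34 in as1-1, -0.23 to 0.16 in tfl2-1 and -0.17 to 0.23 in the double mutant.

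**Figure D2:**
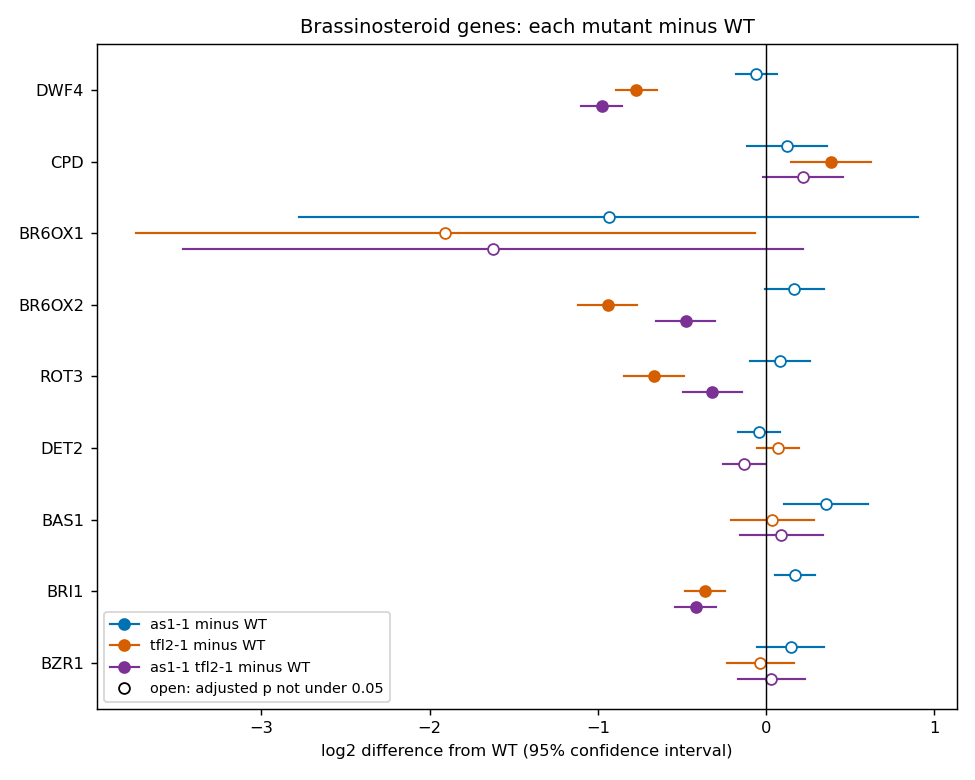
Log2 difference from WT (horizontal axis, 95% confidence interval) of the 9 genes in as1-1, tfl2-1 and the double mutant. Filled points had an adjusted p under 0.05: no as1-1 point is filled, DWF4, BR6OX2, ROT3 and BRI1 are filled on the lower side in both genotypes with tfl2-1, and CPD is filled on the higher side in tfl2-1.

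Scaling bears on the smaller of these differences. With the arrays set to a common spike-in level, in place of the 75th percentile, the median of all genes moved to 0.12 in tfl2-1 and 0.27 in the double mutant against WT. Of all genes called against WT on that scale, 62.2% were higher in as1-1, with 64.3% in tfl2-1 and 74.0% in the double mutant, where the percentile scale gave 36.9%, 48.0% and 48.4%. DWF4 (-0.64 and -0.70) kept its call in both, and BR6OX2 (-0.81) and ROT3 (-0.53) in tfl2-1. BRI1 lost its call in tfl2-1 (-0.23, adjusted p = 0.425), and BR6OX2 (-0.20), ROT3 (-0.04) and BRI1 (-0.14) lost theirs in the double mutant, where each still lay below the median of all genes. CPD gained one there (0.49, adjusted p = 0.0381), and BR6OX1 gained one in tfl2-1 (adjusted p = 9.3e-05) and in the double mutant (0.0017).

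Markers of floral organs, leaf photosynthesis and organ boundaries moved with tfl2-1, and those of root are given beside them. Of all genes, 26.2% rose and 28.4% fell in tfl2-1, and 30.8% rose and 32.9% fell in the double mutant. The summed scaled signal of 8 floral genes was 24159 to 25547 in tfl2-1, 19809 to 21006 in the double mutant and 322.5 to 325.3 in WT, and all 8 rose in both mutants. In as1-1 and WT, AP3, AG, SEP2 and LFY were not well above background. The sum of 10 leaf photosynthesis genes was 1322693 to 1388968 in tfl2-1, 1164447 to 1237061 in the double mutant and 1677732 to 1759412 in WT, and 9 of the 10 fell in tfl2-1 and all 10 in the double mutant. The sum of 6 organ boundary genes, LOB among them, was 917.9 to 942.4 in tfl2-1, 1629 to 1747 in the double mutant and 464.5 to 491.7 in WT, and 5 rose in tfl2-1 and all 6 in the double mutant. The sum of 10 root genes was 106.8 to 131.7 in tfl2-1, 164.7 to 185.4 in the double mutant and 139.1 to 180.2 in WT. Of the 5 root genes tested, 2 fell in tfl2-1 and 1 rose in the double mutant, and EXPA7, RSL4, PRP3 and LRX1 were not well above background in any genotype. In as1-1 the floral sum was 703.8 to 726.6, and 2 of the 8 genes rose. The leaf photosynthesis sum was 1625710 to 1652788 there, and 1 of the 10 fell. Of the 6 organ boundary genes 2 rose and 3 fell in as1-1, with a sum of 476.9 to 478.4. No tested root gene was called in as1-1, where the sum was 189.2 to 200.9. Of all genes 7.09% rose and 12.1% fell in as1-1. The part of these shifts in the brassinosteroid results was not tested, and in samples of many cell types fewer cells of a type and less RNA per cell cannot be told apart.

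The double mutant was then set against each single mutant. Against as1-1, 4 of the 9 genes fell, where 61.5% of all genes were called (32.5% higher and 29.0% lower): DWF4 by 0.92 (adjusted p = 2.57e-05), BR6OX2 by 0.65 (0.000492), ROT3 by 0.40 (0.00385) and BRI1 by 0.59 (0.000144). DWF4 was thus 1.89-fold, BR6OX2 1.56-fold, ROT3 1.32-fold and BRI1 1.50-fold lower in the double mutant than in as1-1. BAS1 had -0.27 (adjusted p = 0.0611) and passed on the lower side in 8 of 17 alternative settings, among them quantile normalization (adjusted p = 0.0361), normexp (0.0295), the deposited value table (0.0360), the replicate number as a block (0.0309) and the omission of the first as1-1 array (0.0445) or either tfl2-1 array (0.0330 both times). Without the second as1-1 array it was -0.17, and on the spike-in scale -0.11. On that scale, DWF4 and BR6OX2 kept the call and ROT3 (-0.25, adjusted p = 0.319) and BRI1 (-0.43, adjusted p = 0.0709) did not. Of all genes called in this contrast 66.4% were higher on that scale and 52.9% on the percentile scale. The contrast shares the double-mutant arrays with the one against WT.

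Against tfl2-1, within slide 2, the double mutant had 2 genes higher and 2 lower, where 31.5% of all genes were called (13.5% higher and 18.0% lower). BR6OX2 rose by 0.46 (SE 0.072, adjusted p = 0.00547; 1.38-fold higher) and ROT3 by 0.35 (SE 0.073, adjusted p = 0.0154; 1.27-fold higher), while DWF4 fell by 0.21 (SE 0.050, adjusted p = 0.0254; 1.15-fold lower) and DET2 by 0.20 (SE 0.051, adjusted p = 0.0301; 1.15-fold lower). The call of BR6OX2 was kept in all 18 alternative settings. Those of ROT3, DWF4 and DET2 were kept in 14, 10 and 6 of the 18. ROT3 was not called without the second tfl2-1 array (adjusted p = 0.0772) or the first double-mutant array (0.0772). DWF4 was not called without the first (0.0939) or second (0.0966) tfl2-1 array or the first double-mutant array (0.116), nor by its second probe (-0.02). On the spike-in scale, where 62.4% of all genes called were higher in place of 42.8%, BR6OX2 alone kept its call. DET2 was not called when any of the tfl2-1, double-mutant or as1-1 arrays was left out (adjusted p from 0.0527 to 0.137).

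**Figure D3:**
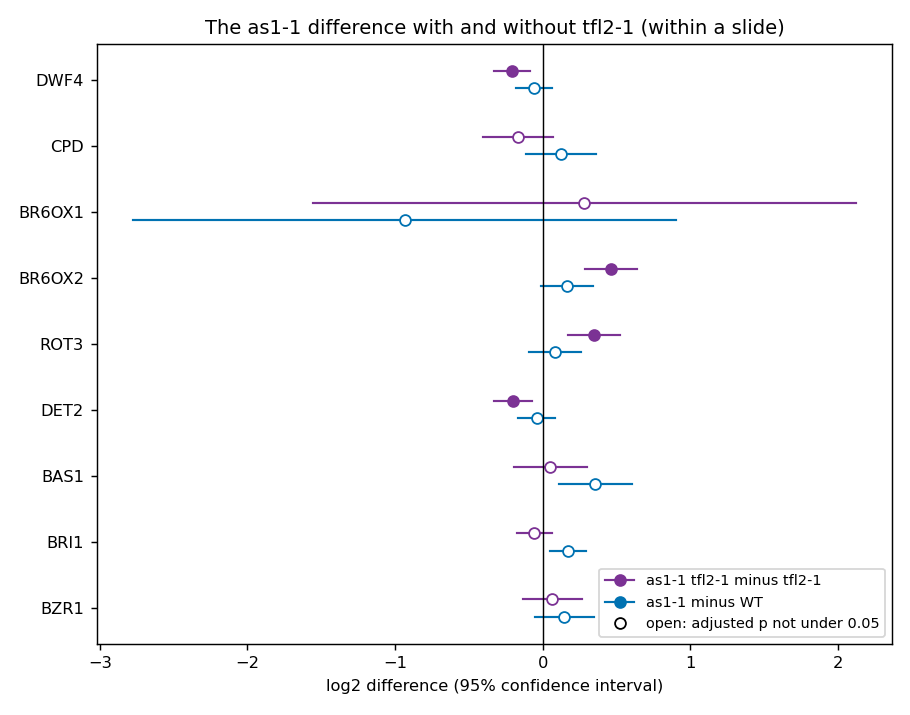
Log2 difference made by as1-1 (horizontal axis, 95% confidence interval) in tfl2-1 plants (double mutant minus tfl2-1) and in plants with TFL2 (as1-1 minus WT). BR6OX2 and ROT3 are filled on the higher side and DWF4 and DET2 on the lower side in tfl2-1 plants, no gene is filled in plants with TFL2, and the intervals of each pair overlap.

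Whether the as1-1 difference was itself different in tfl2-1 plants was tested as an interaction, that difference in tfl2-1 plants minus the one in plants with the TFL2 allele of WT, in which a constant shift between slides cancels. None of the 9 genes passed in limma's test, where 20.3% of all genes did (10.6% higher and 9.67% lower) and 8199 had an unadjusted p under 0.05. The values nearest the threshold were -0.23 for BRI1 (SE 0.070, adjusted p = 0.0690) and 0.30 for BR6OX2 (SE 0.102, adjusted p = 0.0924). ROT3 had 0.26 (adjusted p = 0.123), and the 95% confidence interval for DWF4 was -0.32 to 0.03. BR6OX1 passed without the second double-mutant array (adjusted p = 0.0141), but neither tfl2-1 array of that gene was well above background, so the size of its interaction is not known.

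Genes with more than 1 probe allowed a check of the values above, which rest on the brightest probe. For BR6OX2 the second probe gave -0.96 (adjusted p = 0.00205, in a fit of all probes) in tfl2-1 and -0.47 (0.0259) in the double mutant, against WT. The second DWF4 probe gave -0.62 and -0.64 in the same 2 contrasts, both past the threshold. BRI1 had 3 further probes: 2 fell in both genotypes (-0.82 and -0.62 in tfl2-1, -0.80 and -0.49 in double mutants), and the other, with an SE of 0.521, did not pass. All 3 gave differences between -0.09 and -0.04 in as1-1, where the brightest probe gave 0.17. The second CPD probe was higher in each mutant, by 0.35 in as1-1 (adjusted p = 0.043), by 0.72 in tfl2-1 (0.00105) and by 0.53 in the double mutant (0.00262), and its interaction of -0.54 passed (0.0335). The BZR1 probes disagreed: the second was higher than in WT by 0.41 in as1-1 (adjusted p = 0.021), 0.26 in tfl2-1 (0.0358) and 0.28 in the double mutant (0.0228), while the brightest did not pass in any. The second DET2 probe passed in none. BR6OX1, ROT3 and BAS1 had 1 probe each.

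**Figure D4:**
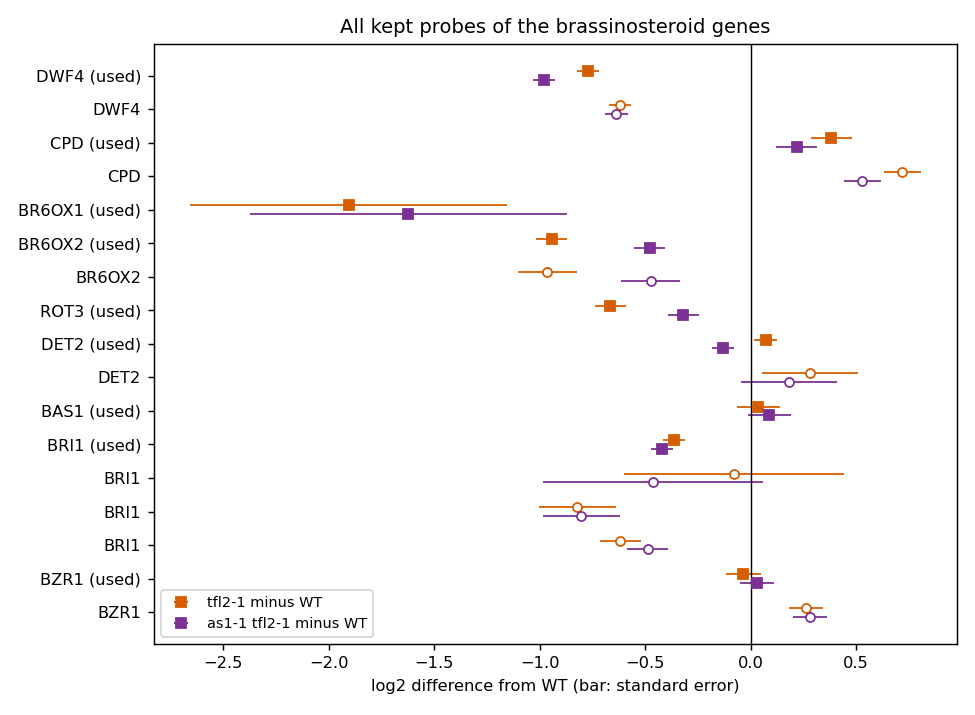
Log2 difference from WT (horizontal axis, bar: standard error) of each of the 17 probes in tfl2-1 and in the double mutant; squares are the brightest probe of a gene, used for the values in the text, and circles are its other probes. The probes of DWF4, BR6OX2 and BRI1 lie on the lower side and those of CPD on the higher side, while the circle of BZR1 lies on the higher side and its square near 0.

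For BR6OX2 and BR6OX1, whose genotype means spanned more than 1 on the log2 scale, the genes with the most similar pattern over the 8 arrays were looked up among 18999 genes, by the root mean square difference of log2 values centred on each gene's mean. Nearest to BR6OX2 were WRKY54 (0.0757), UGT71C2 (0.0787) and AAO2 (0.0800). Nearest to BR6OX1 were AT5G35525 (0.520), AT4G12890 (0.551) and CYP707A2 (0.575). As 3 of the 8 arrays of BR6OX1 were not well above background, the order of its neighbours has no weight.

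Around these 9 genes, 53 further genes of the pathway were looked at, of which 49 were tested. UGT73C6, BIA1, CDG1 and BSU1 were not above background on both arrays of any genotype. Of the 49, 9 rose and 5 fell in as1-1, and 11 rose and 21 fell in each of tfl2-1 and the double mutant, all against WT. That is 28.6%, 65.3% and 65.3% of the 49, where 19.2%, 54.7% and 63.7% of all genes were called in the same 3 contrasts. On the spike-in scale 4 rose and none fell in as1-1, 6 rose and 11 fell in tfl2-1, and 11 rose and 13 fell in the double mutant. The median of the 49 was 0.02 in as1-1, and it was -0.14 in tfl2-1 and -0.13 in the double mutant.

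The steps before and beside the 6 synthesis enzymes were measured by 10 genes for sterol and brassinosteroid synthesis. Of these, 1 fell in as1-1, 3 fell in tfl2-1 and 4 fell in the double mutant, and none rose, where 12.1%, 28.4% and 32.9% of all genes fell. CAS1, which forms the first plant sterol ring system, fell by 0.43 in tfl2-1 and by 0.61 in the double mutant. FK and DWF7, sterol enzymes further along, fell by 0.42 and 0.25 in tfl2-1 and by 0.56 and 0.49 in the double mutant. CYP90D1, a P450 relative of ROT3, fell by 0.45 in the double mutant and had 0.14 (adjusted p = 0.0565) in tfl2-1, and the interaction passed (-0.49, adjusted p = 0.00698). On the spike-in scale none of these 4 genes kept a call against WT. DWF7 in tfl2-1 also lost it without the second WT or the second tfl2-1 array (-0.22 and -0.18).

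The largest rise in the whole list was that of an inactivating enzyme. BAT1, an acyltransferase that inactivates brassinosteroids, had 249.1 and 259.2 in as1-1, 668.7 and 701.3 in tfl2-1, 1367 and 1382 in double mutants, and 251.2 and 260.7 in WT. Only as1-1 overlapped WT. BAT1 was 2.68-fold higher in tfl2-1 (1.42, adjusted p = 8.87e-06) and 5.37-fold higher in the double mutant (2.43, adjusted p = 1.46e-06) than in WT. UGT73C5, a glucosyltransferase that inactivates the hormone, rose by 0.94 in tfl2-1 and by 0.48 in the double mutant, and its second-brightest probe gave 1.86 and 1.67. A near-identical copy, UGT73C6, lies in the same family, so cross-hybridisation is possible. BEN1, a reductase-like protein of brassinosteroid inactivation, rose by 0.52 in as1-1, fell by 0.43 in tfl2-1 and had 0.03 (adjusted p = 0.699) in the double mutant.

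Among 8 genes of the receptor complex, 1 rose and 1 fell in as1-1, and 3 rose and 3 fell in each of tfl2-1 and the double mutant. The shares called were 25%, 75% and 75%, against the 19.2%, 54.7% and 63.7% of all genes. BKK1, a co-receptor kinase, fell by 0.66 in tfl2-1, and its level in the double mutant was 2.14-fold below WT (adjusted p = 3.61e-05). BRS1, a secreted carboxypeptidase linked to BRI1 signalling, fell by 0.95 in tfl2-1 and lay 2.14-fold below WT in the double mutant as well (adjusted p = 3.52e-05). The BRI1 relatives BRL1 and BRL2 were higher: BRL2, which acts in vascular development, rose by 0.33 in as1-1, by 0.47 in tfl2-1 and by 0.84 in the double mutant, and BRL1 by 0.37 in tfl2-1 and 0.55 in the double mutant. With normexp background correction the values of BRL1 were 0.23 and 0.34. On the spike-in scale BRL2 lost its call in as1-1.

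Of 8 tested cytoplasmic kinases and phosphatases, 2 rose in as1-1, 4 rose in tfl2-1 and 5 rose in the double mutant, and none fell. The shares called, 25%, 50% and 62.5%, stand against 19.2%, 54.7% and 63.7% of all genes, of which 7.09%, 26.2% and 30.8% rose. BIN2, the kinase that holds BZR1 inactive, rose by 0.22 in as1-1, by 0.29 in tfl2-1 and by 0.32 in the double mutant. Its relative BIL2 rose by 0.22, 0.44 and 0.60 in the same order. BSK1, a kinase downstream of BRI1, rose by 0.24 in tfl2-1 and by 0.36 in the double mutant, and BSL2, a phosphatase of the cascade, by 0.27 and 0.23. In as1-1 the calls of BIN2 and BIL2 were lost in 10 and 13 of 18 alternative settings, among them the omission of any as1-1, double-mutant or WT array (BIN2 0.20 to 0.24 and BIL2 0.21 to 0.24). In tfl2-1 the calls of BSK1 and BSL2 were lost without the first WT array (0.15 and 0.17) and without either tfl2-1 array (0.22 and 0.26 for BSK1, and 0.27 for BSL2 both times), and in the double mutant that of BSL2 was lost without any single array but the second WT array (0.13 to 0.27).

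Among 8 relatives and partners of BZR1, 1 fell in as1-1, 2 rose and 3 fell in tfl2-1, and 1 rose and 3 fell in the double mutant. That is 12.5%, 62.5% and 50% called, where 19.2%, 54.7% and 63.7% of all genes were called in the same order. BEH1 and BEH3, homologues of BZR1, fell by 0.38 and 0.37 in tfl2-1 and by 0.69 and 0.56 in the double mutant. BIM3, a partner of BES1, rose by 0.57 and 0.86, and BIM1, another, fell by 0.36 in as1-1. The mean of its probes gave -0.19 for BIM1. On the spike-in scale BIM1 lost its call in as1-1, and BEH1 and BEH3 lost theirs in both tfl2-1 and the double mutant. In tfl2-1 the calls of BEH1 and BEH3 depended on the arrays: BEH1 had -0.33 and no call without the first tfl2-1 array, and -0.24 without the first WT array, and BEH3 had -0.38 and -0.37 and no call without the first or the second WT array, and -0.22 without the first tfl2-1 array.

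Of 12 genes known to respond to brassinosteroids, 11 fell in tfl2-1 and 11 fell in the double mutant, and none rose in either, where 28.4% and 32.9% of all genes fell. Their median was -1.59 in tfl2-1 and -1.46 in the double mutant, where the median of all genes was -0.01 in both. The exception in both was BRH1, a RING protein whose gene the hormone represses, with 0.10 (adjusted p = 0.224) and 0.00. IBH1, a bHLH-type repressor of growth whose gene is also repressed by the pathway, fell with the others, by 0.43 and by 1.23. Over 17 alternative settings, 9 to 11 of the 12 fell in tfl2-1 and 11 in the double mutant. BEE2, a bHLH gene, lost its call in tfl2-1 (-0.30) without the second WT array (-0.27) or either tfl2-1 array (-0.31 and -0.30).

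EXPA8, an expansin that loosens cell walls, showed the largest of these differences. It had 1778 and 1918 in as1-1, 596.4 and 624.3 in tfl2-1, 225.6 and 210.1 in double mutants, and 2291 and 2275 in WT. No genotypes overlapped. Against WT it fell 3.74-fold in tfl2-1 (-1.90, adjusted p = 6.75e-06) and 10.5-fold in the double mutant (-3.39, adjusted p = 1.07e-06). PRE1, a small HLH protein that promotes elongation, was 4.37-fold lower in tfl2-1 and 8.51-fold lower in the double mutant, with 425.9 and 405.4 in as1-1, 127.2 and 104.8 in tfl2-1, 58.3 and 60.4 in double mutants, and 509.1 and 500.6 in WT. PRE6, of the same family, fell by 2.22 in both, and SAUR15, a small auxin- and brassinosteroid-induced gene, fell by 2.36 in tfl2-1 and by 2.01 in the double mutant (-1.57 in tfl2-1 with normexp).

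In as1-1 the response genes split: 5 rose and 2 fell, with a median of -0.14, where 7.09% of all genes rose and 12.1% fell. TCH4, a wall-modifying enzyme induced by touch and by brassinosteroids, had 14068 and 14428 in as1-1, 2400.1 and 2471 in tfl2-1, 1755 and 1736 in double mutants, and 4536 and 4569 in WT. It was 3.13-fold higher in as1-1 (1.65, adjusted p = 1.27e-05), 1.87-fold lower in tfl2-1 and 2.61-fold lower in the double mutant, each against WT. EXO, which promotes leaf cell expansion, was 2.12-fold higher in as1-1 (1.09). The bHLH genes BEE1 (0.61) and BEE3 (0.35) and the HLH gene PRE6 (0.47) also rose, and EXPA8 (-0.31) and IBH1 (-0.25) fell. On the spike-in scale 3 of the 12 response genes rose in as1-1 and none fell, and PRE6 lost its call. BEE1, BEE2, BEE3, EXO, TCH4, IBH1 and BRH1 are named here after their values were seen. The calls in as1-1 of BEE3, EXPA8 and IBH1 were lost in 6, 6 and 7 of the 18 alternative settings. Each was lost without the first WT array (0.25, -0.30 and -0.25) and without the first as1-1 array (0.39, -0.25 and -0.25), BEE3 and IBH1 also without the second as1-1 array (0.32 and -0.25), and EXPA8 and IBH1 also without the second WT array (-0.31 and -0.25).

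Genes of the response to touch and cold were looked at beside TCH4 and EXO. All 6 tested rose in as1-1, 2 rose and 4 fell in tfl2-1, and 5 fell and none rose in the double mutant. Of all genes 7.09% rose in as1-1, 26.2% rose and 28.4% fell in tfl2-1, and 30.8% rose and 32.9% fell in the double mutant. Their summed scaled signal was 23224 to 24460 in as1-1, 4784 to 4883 in tfl2-1, 2870 to 2947 in the double mutant and 5558 to 5869 in WT. CBF2 was not well above background in the genotypes with tfl2-1. Their median was 2.42 in as1-1, then -0.33 in tfl2-1 and -1.20 in the double mutant, each against WT. Their part in the rise of TCH4 and EXO was not tested.

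**Figure D5:**
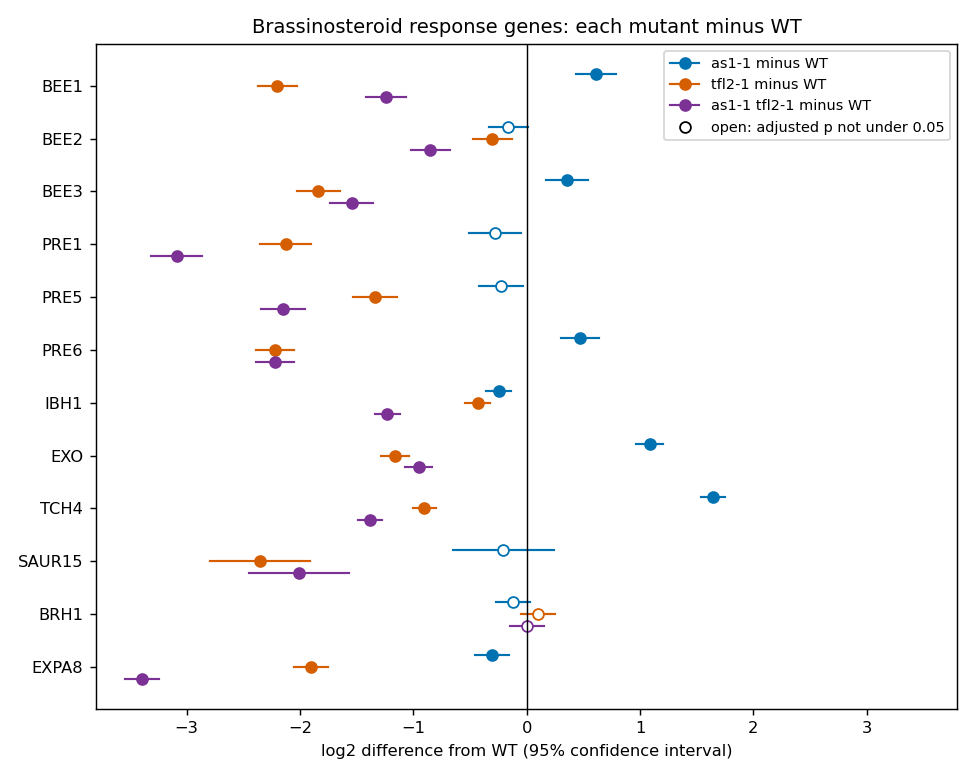
Log2 difference from WT (horizontal axis, 95% confidence interval) of 12 brassinosteroid response genes in as1-1, tfl2-1 and the double mutant; filled points had an adjusted p under 0.05. In tfl2-1 and in the double mutant 11 of the 12 are filled on the lower side, and in as1-1 BEE1, BEE3, PRE6, EXO and TCH4 are filled on the higher side.

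Among regulators reported to act on the synthesis or inactivation genes, 5 of 6 were tested, and 3 fell in as1-1, where 12.1% of all genes fell. LOB, the activator of BAS1, had 9.50 and 9.54 in as1-1, both not well above background, 248.9 and 248.2 in tfl2-1, 142.9 and 154.5 in double mutants, and 99.5 and 113.5 in WT. By its brightest probe LOB was at least 9.57-fold lower in as1-1 than in WT (limma's adjusted p = 7.48e-06). In as1-1 the signal of BAS1 was 251.2 and 287.9, and in WT it was 208.9 and 211.4. LOB rose 2.34-fold in tfl2-1 and 1.40-fold in the double mutant, against WT. A second LOB probe gave -2.07 in as1-1, a smaller difference than the bound from the brightest probe. It gave 1.40 in tfl2-1 and 0.84 in the double mutant. Normexp background correction, whose offset narrows the differences of dim genes, gave -1.45 in as1-1. The bHLH factors PIF4 and PIF5, which bind synthesis genes and act with BZR1, were lower in the genotypes with tfl2-1: PIF4 fell by 0.31 in as1-1, by 0.76 in tfl2-1 and by 1.25 in the double mutant, and PIF5 by 0.27, 1.08 and 1.24. The call of PIF5 in as1-1 was lost in 11 of 18 settings, among them the omission of any array but the first WT array (-0.32 to -0.20), and its second-brightest probe gave -0.58. On the spike-in scale the calls of both PIF4 and PIF5 in as1-1 were lost. TCP1, an activator of DWF4, was not well above background in as1-1 or WT. Its log2 difference of tfl2-1 from WT ranged from 0.29 to 2.54 over 16 alternative settings. With the settings of the report TCP1 was at least 2.20-fold higher in tfl2-1 than in WT on the scaled signal (limma's adjusted p = 0.038). That call was lost without the second WT array (adjusted p = 0.162), either tfl2-1 array (0.106 and 0.126) or either double-mutant array (0.0533 both times) and with no filter on dim probes (0.0972).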

How the data were processed

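Total RNA of 8 whole-seedling samples was hybridised to one-colour Agilent arrays, 1 sample per array and 2 arrays per genotype. The deposited scanner files hold intensities made with Agilent Feature Extraction 10.7 (per the submitters' processing notes), with a processed signal from which background and a spatial trend had been subtracted, per the file headers. A deposited value table holds log2 values with a median of 7.68 on every array and a correlation with the log2 signal of 0.999 to 1.000; how the authors centred them is not given in the sources used here, and the table served as an alternative only.

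The processed signal was divided by its 75th percentile on each array and put on the log2 scale. Spots called outliers by the scanner program (4 to 13 per array, 67 in all) were left out, and no spot was saturated. Probes well above background on both arrays of at least 1 genotype were kept (30467 of 43603, 69.9%), and the brightest kept probe stood for a gene. Of the probes, 34285 matched a locus by accession in a RefSeq table of another assembly (TAIR10.1), so no coordinates or sequences are printed, and 9318 kept the names of the files. The model had 22668 genes, 19000 of them with a locus.

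All 8 arrays were fitted together with limma 3.58.1 in R 4.3.3, with genotype as the only factor (residual degrees of freedom 4, prior 2.06). Tests were two-sided, with Benjamini-Hochberg adjustment over all genes and a threshold of 0.05. The 18 alternatives changed the scaling, background correction, filter, probes, pairing, arrays or value table, or left out 1 array. That with the second-brightest probe was chosen after seeing the data. Normexp background correction used an offset of 50, which narrows the log2 differences of dim genes. The number of arrays limits the precision. The 10 genes and the gene lists were chosen with earlier results of these data known. All 10 were to be named, and of the further genes up to 4 per role with the largest differences from WT among those past the threshold.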

Additional observations from a re-analysis of the deposited data

Results flagged for a closer look

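The effect of as1-1 differed between tfl2-1 plants and plants with TFL2 for 17 of the named genes that are not among the 9 measured members, by limma's interaction test over all genes (as1-1 tfl2-1 minus tfl2-1, less as1-1 minus WT, on the log2 scale). A constant shift between the slides cancels in this difference. The 17 are LOB, AS1, TFL2, KNAT1 and the 13 that passed among the 49 further genes tested (26.5%), where 20.3% of all genes passed. Further genes were named by their values in these data, so the 17 are not set against that share.

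Among inactivating and synthesis enzymes the difference was 1.02 for BAT1 (adjusted p = 0.000592), which as1-1 raised in tfl2-1 plants and left at -0.01 in plants with TFL2. It was -0.51 for UGT73C5 (0.0065) and -0.49 for CYP90D1 (0.00698). For the co-receptor gene BKK1 it was -0.37 (0.0389), and for the BES1 partner gene BIM1 it was 0.27 (0.0467).

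Of the response genes, TCH4 had -2.13 (adjusted p = 2.78e-05), EXPA8 -1.18 (0.000708), EXO -0.88 (0.000928), PRE1 -0.68 (0.0184), PRE5 -0.58 (0.0186), IBH1 -0.55 (0.00332), PRE6 -0.47 (0.0216) and BEE2 -0.38 (0.0441). TCH4 and EXO rose in as1-1 against WT, and PRE1, PRE5, BEE2, IBH1 and EXPA8 fell further in as1-1 tfl2-1 than in tfl2-1. All 6 tested genes of the response to touch and cold also passed this test on the lower side, with a median of -3.34. Of all genes 9.67% passed on that side. The part of the touch and cold response in the values of TCH4 and EXO was not tested.

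LOB had 2.74 (adjusted p = 7.47e-05), with 1.50 by its second probe and 0.94 after normexp background correction, whose offset narrows the differences of dim genes. Both as1-1 arrays of LOB were not well above background. AS1 had 0.83 (0.00234), TFL2 0.43 (0.0203) and KNAT1 0.40 (0.0197).

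Several of these calls did not hold in other settings. Over 17 alternatives the call was lost for BIM1 in 14, BEE2 in 13, BKK1 in 11, PRE6 in 8, PRE1 and PRE5 in 6 each, UGT73C5 and IBH1 in 2 each and CYP90D1 in 1. The second-brightest probe of BEE2 gave 0.00.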

How the results depend on the processing

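The 54 log2 differences of the 9 genes (6 contrasts each) were recomputed under up to 18 alternatives, 929 values in all, of which 826 kept direction and side of the threshold, 34 lost the call, 35 gained one and 34 changed sign. Of 17 calls, 7 were kept in every setting run: DWF4, BR6OX2 and ROT3 in tfl2-1 and DWF4 in as1-1 tfl2-1 against WT, DWF4 and BR6OX2 in as1-1 tfl2-1 against as1-1, and BR6OX2 in as1-1 tfl2-1 against tfl2-1. All sign changes were in differences that were not called with the settings of the report, and the cause was not tested.

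In as1-1 against WT the sign changed on the spike-in scale for DET2 (0.0802) and DWF4 (0.0631), with the mean of probes for DET2 (0.23) and BRI1 (-0.0085), and with the second-brightest probe for DET2 (0.50), DWF4 (0.0065) and BRI1 (-0.0742). In tfl2-1 against WT it changed for BAS1 by quantile normalization (-0.0102) and the deposited value table (-0.0104), and for BZR1 on the spike-in scale (0.10), with the mean of probes (0.11) and with the second-brightest probe (0.26, adjusted p = 0.0386). In as1-1 tfl2-1 against WT it changed for DET2 on the spike-in scale (0.15), with the mean of probes (0.0262) and with the second-brightest probe (0.18), and for BZR1 with normexp (-0.0046). In as1-1 tfl2-1 against as1-1 it changed on the spike-in scale for BZR1 (0.0396) and DET2 (0.0652), and with normexp for DET2 (0.0085). In as1-1 tfl2-1 against tfl2-1 it changed for BRI1 on the spike-in scale (0.0848) and with the second-brightest probe (0.13), and for BAS1 with normexp (-0.0169). In the interaction it changed for BRI1 with the second-brightest probe (0.21).

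With 1 array left out at a time, where the remaining array of that genotype is assumed to vary like the others, CPD ranged from -0.0029 to 0.25 in as1-1 against WT, and BZR1 from -0.0918 to 0.0238 and BAS1 from -0.0885 to 0.16 in tfl2-1 against WT. BZR1 ranged from -0.0594 to 0.12 in as1-1 tfl2-1 against WT, and BR6OX1 from -1.95 to 0.58 in as1-1 tfl2-1 against as1-1. In as1-1 tfl2-1 against tfl2-1 the ranges were -0.0740 to 0.18 for BAS1, -0.0253 to 0.16 for BZR1 and -0.98 to 1.55 for BR6OX1, and in the interaction they were -0.17 to 0.0096 for BZR1 and -0.0489 to 2.49 for BR6OX1. The values of BR6OX1 rest in part on arrays where it was not well above background, so their sizes are not known.

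Counts of called members also moved. In as1-1 against WT (0 in the report) 1 was called with probes above background on all 8 arrays, 1 with the mean of probes and 2 with the second-brightest probe, and 0 to 1 with an array left out. In as1-1 tfl2-1 against as1-1 (4) there were 2 on the spike-in scale. In as1-1 tfl2-1 against tfl2-1 (4) there were 1 on the spike-in scale, 1 without a filter, 2 with the mean of probes, 2 with only the arrays of slide 2, 2 with the second-brightest probe and 1 to 4 with an array left out. In the interaction (0) there was 1 with the second-brightest probe and 0 to 1 with an array left out.

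Of the 49 further genes, 4 were called on the spike-in scale in place of 14 in as1-1 against WT, 17 in place of 32 in tfl2-1 against WT, 19 in place of 34 in as1-1 tfl2-1 against as1-1, 7 in place of 21 in as1-1 tfl2-1 against tfl2-1 and 4 in place of 13 in the interaction. Without a filter 7 were called in as1-1 against WT and 7 in the interaction, with the second-brightest probe 8 in the interaction, and with an array left out 7 to 15 in as1-1 against WT and 8 to 11 in the interaction. Over all genes, 4353 were called in as1-1 against WT (1537 on the spike-in scale, 2024 without a filter), 12391 in tfl2-1 against WT (6163 on the spike-in scale), 13933 in as1-1 tfl2-1 against as1-1 (8697), 7144 in as1-1 tfl2-1 against tfl2-1 (2323, and 4359 without a filter) and 4597 in the interaction (1411, and 1978 without a filter). With an array left out the lowest of these counts were 2262, 4399 and 2719 for as1-1 against WT, as1-1 tfl2-1 against tfl2-1 and the interaction.

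No shift shared by arrays of the same replicate number was visible: their deviations from the group means correlated between -0.0490 and 0.0548. Whether samples of the same number were paired by design cannot be told from these values. With the replicate block, 1 member was called in as1-1 against WT (BAS1, adjusted p = 0.0396), BAS1 was also called in as1-1 tfl2-1 against as1-1 (-0.27, adjusted p = 0.0309), and BIN2, BIL2 and PIF5 in as1-1 and BSK1 in tfl2-1 lost their calls against WT. With 2 arrays per genotype, and both genotypes with tfl2-1 on a slide of their own, some small differences turn on single arrays, and signals near background, as for BR6OX1, are poorly measured.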
